A study of Mus musculus with 6 samples.

Results

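Blood vessel endothelial genes were followed in cultured mouse cochleae with and without neomycin damage. The list held 40 symbols, chosen by symbol as genes known from vessel endothelium, and 39 of the 40 were among the 24421 gene symbols counted. The remaining name, Eltd1, is an older symbol of Adgrl4, which was present. Of the 39 genes, 21 (53.8%) were called lower after neomycin, beside 6.6% of all genes tested, and 0 were called higher, beside 2.24%. The genes of endothelial cell-cell junctions fell together. The most abundant transcripts of the list, such as Emcn (endomucin), Eng (endoglin) and S1pr1, were not called. Eng and S1pr1, and the junction genes Pecam1 and Icam2, are also made by other cells, so their levels cannot be assigned to endothelium alone. Which cells of the tissue made the Emcn transcript was not tested.

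The 6 samples were cochlear explants from wild-type (WT) mice at postnatal day 2, 3 control and 3 neomycin, each pooled from 6 to 8 cochleae. The explants were kept for 12 h, exposed to 1 mM neomycin for 6 h in the treated group, and cultured for a further 5 days with 10 μM EdU, a label of newly made DNA. The labels print the same culture text for all 6 samples, and it is the treatment label that separates control from neomycin. The study's methods state that the stria vascularis anlage, a richly vascular tissue, was dissected away together with the modiolus and the tectorial membrane before culture, so its vessels are not part of the samples. Total counts ran from 50471116 to 66068108 reads per sample. Neomycin, an aminoglycoside toxic to hair cells, was followed by lower levels of hair cell markers (15 of 17 called lower, beside 6.6% of all genes tested). Supporting cell, mesenchyme and hair cell markers were present in every sample. Nothing in the labels says that pools came from separate litters or days, so p-values measure the spread between these samples.

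Endothelial cells line blood vessels. Junction proteins such as VE-cadherin, claudin-5 and PECAM1 hold neighbouring cells together and set how leaky the vessel is. VEGF and angiopoietin receptors on the same cells receive growth and survival signals from the surrounding tissue, and transcription factors of the ETS and SoxF families keep endothelial genes active. In the cochlea, capillaries run in the lateral wall, and other vessels lie beneath the basilar membrane, near the sensory epithelium.

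Levels below are CPM, counts per 1000000 library reads after TMM scaling, and a log2 fold change is neomycin against control. A gene was called when its adjusted p was under 0.05 and its fold change over 1.5, in edgeR's quasi-likelihood test with Benjamini-Hochberg adjustment over the 15988 genes tested. DESeq2 and limma-voom also called 0 endothelial genes higher, and in edgeR 1 of them (Slco1a4) was higher at an unadjusted p under 0.05. Without the fold threshold the same number, 21, had an adjusted p under 0.05 and a lower level, beside 16.1% of all genes. In 23 genes all 3 neomycin samples lay below all 3 control samples, beside 22.5% of all genes, and in 0 genes did they all lie above, beside 21% of all genes. The median log2 fold change was -0.96 over the endothelial genes and -0.00408 over all genes tested. Altogether 33 of the fitted log2 fold changes were below 0 and 6 were above. In bulk tissue, fewer endothelial cells and less RNA per endothelial cell cannot be told apart.

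All 39 genes passed the filter on low counts, which asked for about 0.178 CPM in 3 samples. For 5 of them (Cldn5, Sox17, Mmrn2, Tal1 and Lyve1) the neomycin samples did not all reach this level, so these passed only through the control samples. Passing in this way favours a lower level after neomycin, so the direction of these 5 is weak evidence. Among the other 34 genes, 18 were called lower and 0 higher, beside 6.6% and 2.24% of all genes tested. Control 2 was the lowest control sample for 16 of the 21 genes called lower, and neomycin 2 was the lowest neomycin sample for 13 of the 21. Of the 21 calls, 14 held in each of the 6 fits that left out 1 sample. The number called lower was 15 without control 1 and 15 without neomycin 2, and 18 to 19 without any other sample.

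**Figure D1:**
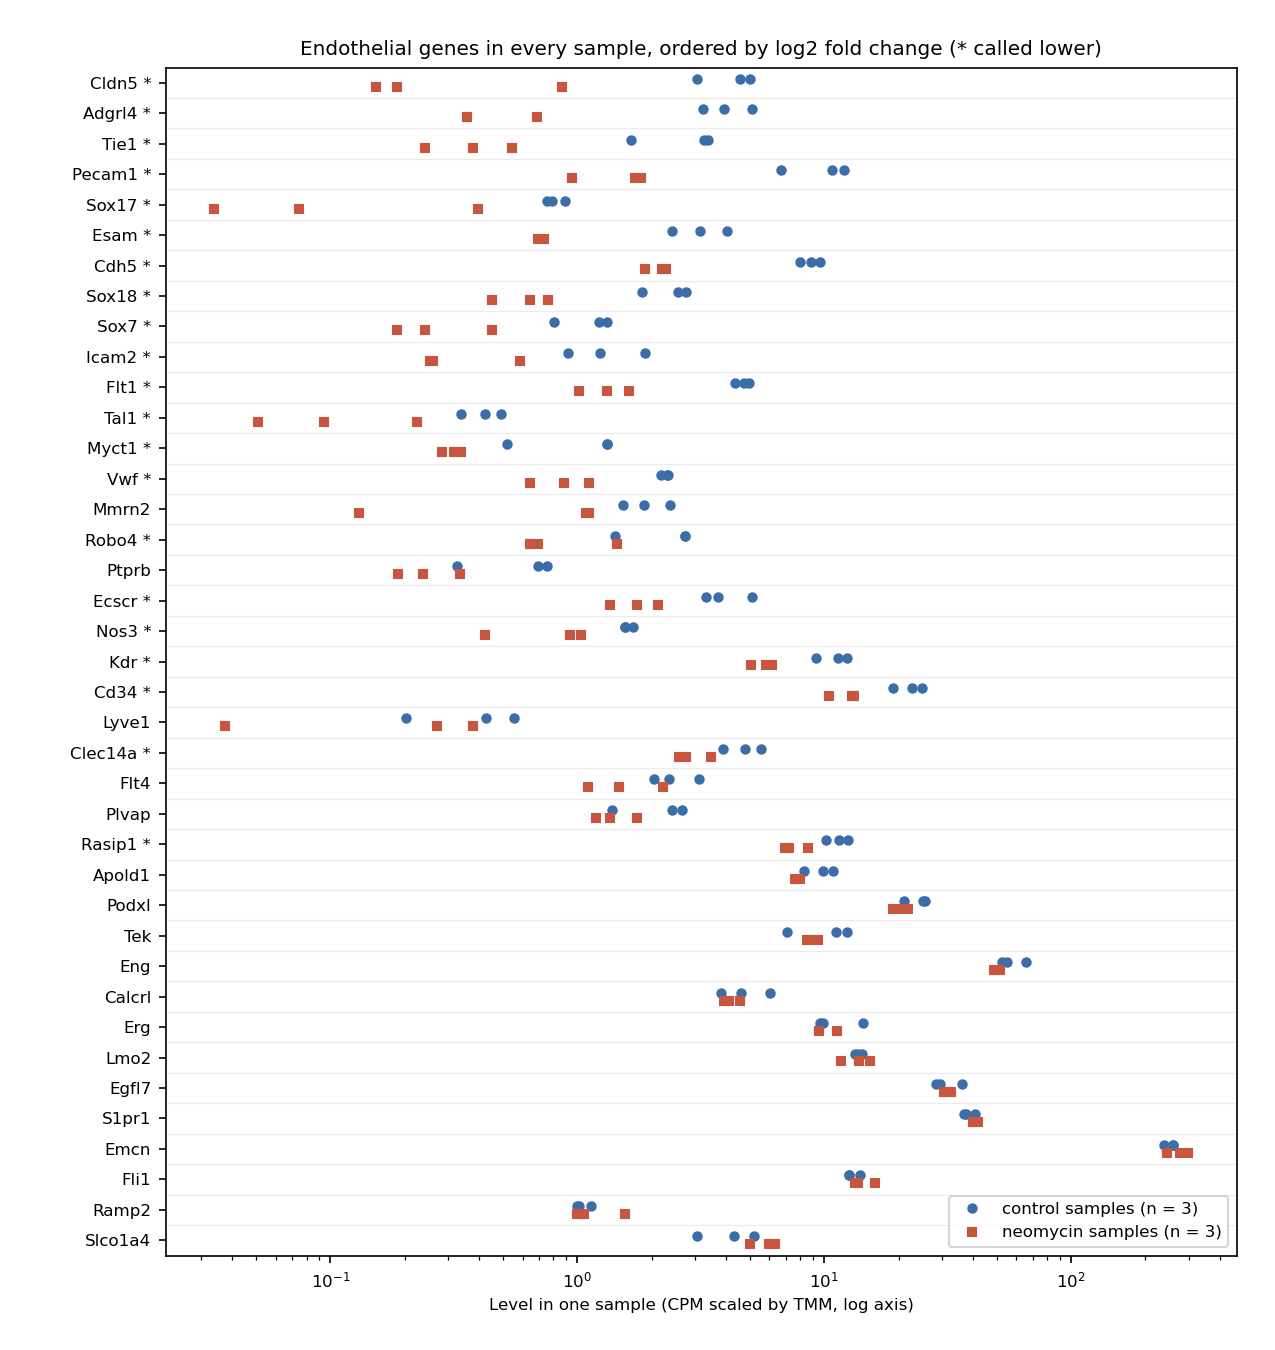
Level of each of the 39 endothelial genes in every sample, as TMM-scaled CPM on a log axis. Circles are the 3 control samples, squares the 3 neomycin samples, and a star marks the 21 genes called lower. Genes are ordered from the lowest log2 fold change (Cldn5, -3.40) to the highest (Slco1a4, 0.46), and the groups lie apart for most genes in the upper part and overlap for most in the lower part.

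Because many endothelial genes share ETS and SoxF binding motifs, the 250 bases before the annotated start were read for the genes that the RefSeq promoter set used here holds (build GRCm38.p6). It matched 20 of the 39 genes, with 25 windows. The 4 windows below are shown because they stand for both outcomes: Cldn5 and Flt1 fell, and Eng and Tek were not called. Each is written 5′ to 3′ on the gene's own strand, and capitals mark the letters GGAA, the core of ETS motifs, or TTCC where the core lies on the opposite strand.
Cldn5, chr16:18776597-18776846, plus strand: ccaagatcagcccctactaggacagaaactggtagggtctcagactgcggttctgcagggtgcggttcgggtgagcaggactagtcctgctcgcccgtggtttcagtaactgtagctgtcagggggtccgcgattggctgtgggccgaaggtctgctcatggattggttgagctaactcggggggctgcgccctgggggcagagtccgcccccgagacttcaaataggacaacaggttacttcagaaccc
Flt1, chr5:147726012-147726261, minus strand: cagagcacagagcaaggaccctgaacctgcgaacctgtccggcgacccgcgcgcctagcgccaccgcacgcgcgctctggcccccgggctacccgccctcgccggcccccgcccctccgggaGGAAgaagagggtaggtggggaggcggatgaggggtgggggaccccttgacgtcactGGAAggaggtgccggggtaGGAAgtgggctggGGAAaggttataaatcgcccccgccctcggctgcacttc
Eng, chr2:32646345-32646594, plus strand: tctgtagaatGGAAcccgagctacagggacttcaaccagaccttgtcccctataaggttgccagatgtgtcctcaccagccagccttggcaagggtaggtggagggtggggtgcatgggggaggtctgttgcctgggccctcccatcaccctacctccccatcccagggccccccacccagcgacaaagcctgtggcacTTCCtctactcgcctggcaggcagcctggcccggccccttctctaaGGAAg
Tek, chr4:94739039-94739288, plus strand: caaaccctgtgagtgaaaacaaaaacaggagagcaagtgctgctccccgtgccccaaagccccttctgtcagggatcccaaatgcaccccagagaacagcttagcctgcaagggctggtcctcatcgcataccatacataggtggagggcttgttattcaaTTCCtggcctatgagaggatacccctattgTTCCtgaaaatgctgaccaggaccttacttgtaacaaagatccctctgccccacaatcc

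The core was absent from the Cldn5 window and occurred 4 times in that of Flt1, 3 times in that of Eng and 2 times in that of Tek. Such a short word is common, since 93.4% of 32851 promoter windows of this length hold it on either strand, with a median of 3 matches per window. Over the windows of the endothelial genes the median was 4, ranging from 0 to 8. The longer ETS motif CNGGAAGT, which contains the core, occurred in 1 of the 11 matched genes called lower and in 1 of the 9 not called, and in 7.58% of all windows. The combined FOX and ETS motif AACAGGAA, which also contains the core, was found in 0 of the 11 and 3 of the 9, and in 2.25% of all windows. The SOX motif ACAANGG occurred in 2 of the 11 and 1 of the 9, and in 11.6% of all windows. Genes count once over all their windows here, whereas the percentages are per window. Counted per window, the ETS, FOX and ETS, and SOX motifs occurred in 2, 3 and 3 of the 25 windows. These matches, searched on both strands, describe letters only and do not show binding, and distal enhancers were not read.

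All 5 junction and adhesion genes were called lower, beside 6.6% of all genes tested. In each the neomycin samples lay below the control samples without overlap, beside 22.5% of all genes. Cldn5 passed the filter only through the control samples, while Pecam1, Cdh5, Esam and Icam2 reached its level in every sample. The median log2 fold change of all 5 was -2.15. The summed level of the 5 genes went from 29.7, 21 and 31.3 CPM in control 1 to 3 to 5.87, 5.1 and 4.32 CPM in neomycin 1 to 3, leaving 18.6% of the control mean. Cldn5 (chr16:18776847-18778262, GRCm38) encodes claudin-5, the tight junction protein of vessel walls. It was measured at 5, 3.05 and 4.57 CPM in the control samples and 0.866, 0.153 and 0.186 CPM in the neomycin samples. Its log2 fold change of -3.40 (SE 0.48, adjusted p = 0.000448) was the lowest of the list and left 9.46% of the control level. The residual signal lay mostly in neomycin 1, with 46, 9 and 10 counts in neomycin 1 to 3 against 345, 159 and 257 in control 1 to 3. Without neomycin 1 the log2 fold change was -4.62.

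Pecam1 (chr11:106654217-106750628) encodes PECAM1, or CD31, which joins endothelial cells and is also carried by platelets and leukocytes. Its level was 10.7, 6.65 and 12 CPM in control and 1.81, 1.71 and 0.949 CPM after neomycin, a log2 fold change of -2.71 (SE 0.26, adjusted p = 2.66e-05). Cdh5 (chr8:104101625-104144511), the gene of VE-cadherin and the defining adherens junction protein of endothelium, had the smallest standard error of this group. It stood at 9.61, 7.99 and 8.82 CPM in control and 1.88, 2.29 and 2.2 CPM after neomycin, with a log2 fold change of -2.05 (SE 0.16, adjusted p = 3.99e-06). The share of the control level that remained was 24.1% for Cdh5 and 15.2% for Pecam1. Esam, an adhesion molecule of endothelial tight junctions, went from 3.14, 2.41 and 4.02 CPM to 0.734, 0.695 and 0.726 CPM, and its log2 fold change was -2.15 (SE 0.27, adjusted p = 0.000184). Icam2, which binds leukocyte integrins, went from 1.23, 0.92 and 1.89 CPM to 0.584, 0.254 and 0.261 CPM, a log2 fold change of -1.88 (SE 0.44, adjusted p = 0.0078).

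**Figure D2:**
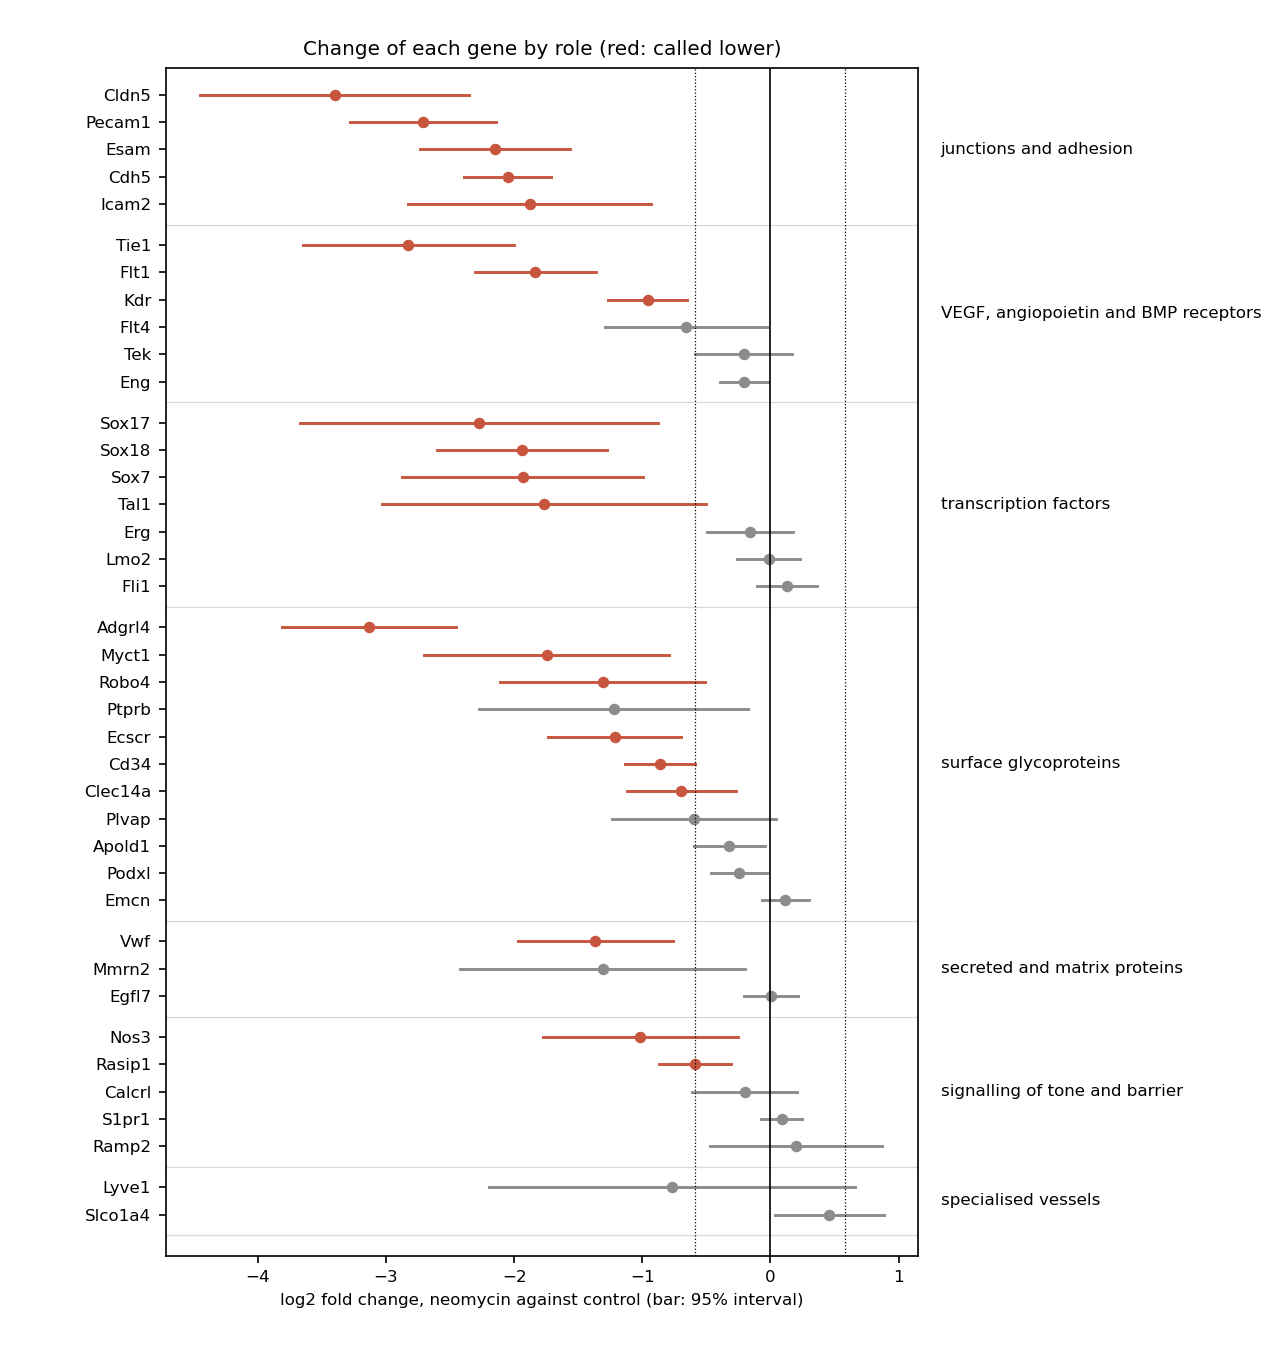
Log2 fold change, neomycin against control, for the 39 endothelial genes grouped by role. Points are the fitted values, bars are 95% intervals, red marks genes called lower, and dotted lines mark a fold change of 1.5 in either direction. All 5 junction genes lie at -1.88 or lower, whereas the receptors and transcription factors each divide into a called and an uncalled set.

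Of the 6 VEGF, angiopoietin and BMP receptor genes, 3 (50%) fell, beside 6.6% of all genes tested. Tie1 and Flt1 fell most, Kdr fell less, and Tek and Eng were not called. Tie1 encodes the orphan partner of the angiopoietin receptor. It was at 3.26, 1.65 and 3.4 CPM in control and 0.377, 0.542 and 0.242 CPM after neomycin, with a log2 fold change of -2.83 (SE 0.38, adjusted p = 0.000313). Flt1, the gene of VEGF receptor 1, which binds VEGF tightly and signals weakly, was at 4.97, 4.37 and 4.75 CPM and 1.32, 1.02 and 1.62 CPM, a log2 fold change of -1.84 (SE 0.22, adjusted p = 0.00013). Little of the control level was left, 14.1% for Tie1 and 28% for Flt1. Kdr, the gene of VEGF receptor 2, the main signalling receptor for VEGF, was at 11.3, 12.4 and 9.29 CPM in control and 5.82, 5.03 and 6.14 CPM after neomycin. Its log2 fold change was -0.96 (SE 0.14, adjusted p = 0.000629), and 51.5% of the control level remained. In none of these 3 genes did a neomycin sample reach a control sample.

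Tek encodes the angiopoietin receptor itself. It was at 11.2, 7.09 and 12.3 CPM in control and 9.43, 8.59 and 8.51 CPM after neomycin, and control 2 lay below all 3 neomycin samples. The log2 fold change was -0.21 (95% interval -0.59 to 0.17, adjusted p = 0.396). Eng, the co-receptor for BMP and TGF-beta ligands, was the receptor gene with the highest level per length, 14.3 CPM per kb of exon in control. It stood at 65.7, 54.9 and 52.7 CPM in control and 50.4, 51.3 and 48.8 CPM after neomycin, without overlap, and its log2 fold change of -0.20 (95% interval -0.39 to -0.02, adjusted p = 0.0954) missed the threshold. Flt4, the gene of VEGF receptor 3, which is used by lymphatic and sprouting endothelium, was at 3.12, 2.36 and 2.05 CPM and 1.47, 1.1 and 2.22 CPM. Its groups overlapped through neomycin 3, and its log2 fold change was -0.66 (95% interval -1.29 to -0.03, adjusted p = 0.108). Without neomycin 3, Flt4 was called lower at a log2 fold change of -0.97 (adjusted p = 0.0415).

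Within a sample, the ratio of counts of a pair of genes does not depend on the scaling between libraries. The following 4 ratios were chosen after the values were seen. The Tie1 to Tek ratio was 0.292, 0.232 and 0.275 in control 1 to 3 and 0.0399, 0.0631 and 0.0284 in neomycin 1 to 3, so there was less Tie1 per Tek in every neomycin sample. The Flt1 to Kdr ratio was 0.438, 0.353 and 0.511 in control and 0.227, 0.202 and 0.264 after neomycin. The Cdh5 to Erg ratio was 0.672, 0.81 and 0.917 in control and 0.198, 0.204 and 0.23 after neomycin. The Cdh5 to Emcn ratio was 0.0371, 0.0336 and 0.0341 in control and 0.00767, 0.00828 and 0.00738 after neomycin. No neomycin ratio reached a control ratio. For each, the two-sided exact permutation test over samples gave p = 0.1, the smallest value that 3 against 3 samples allow. Each pair set a gene already called lower over one that fell less or was not called. The groups were therefore bound to lie apart, and this p is no test of the ratios.

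Of the 7 transcription factor genes, 4 (57.1%) were called lower, beside 6.6% of all genes tested. All 3 SoxF genes (Sox7, Sox17 and Sox18), which act together in vessel development, fell, as did Tal1. Sox17 and Tal1 passed the filter only through the control samples. The ETS genes Erg and Fli1 and the cofactor gene Lmo2 were not called. Tal1, Fli1 and Lmo2 are also made by other cells, and a difference between families was not tested. Sox18 was at 2.75, 1.82 and 2.56 CPM in control and 0.452, 0.644 and 0.763 CPM after neomycin, a log2 fold change of -1.94 (SE 0.31, adjusted p = 0.000896). Sox7 was at 1.32, 0.805 and 1.23 CPM and 0.452, 0.186 and 0.242 CPM, a log2 fold change of -1.93 (SE 0.43, adjusted p = 0.00643). Sox17, a factor of arterial endothelium, was at 0.753, 0.786 and 0.889 CPM and 0.395, 0.0339 and 0.0745 CPM, a log2 fold change of -2.28 (SE 0.64, adjusted p = 0.0202). Of the control levels there remained 26.1% for Sox18, 26.2% for Sox7 and 20.6% for Sox17.

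Among these factors, Sox17 and Tal1 rest on few reads. Sox17 had 21, 2 and 4 counts in neomycin 1 to 3 against 52, 41 and 50 in control 1 to 3, and an antisense-strand transcript, Gm37587, overlaps 16.8% of its exons. Without control 2, neomycin 2 or neomycin 3 its call was lost, at adjusted p = 0.0627, 0.0732 and 0.07. Without neomycin 1, which held most of the remaining reads, its log2 fold change was -3.87 (adjusted p = 0.00133). Tal1, a factor of blood and endothelial development, was at 0.493, 0.422 and 0.338 CPM in control and 0.0941, 0.0508 and 0.223 CPM after neomycin, or 34, 22 and 19 counts against 5, 3 and 12. Its log2 fold change was -1.77 (SE 0.58, adjusted p = 0.0394), and the call was lost without any of control 1 (adjusted p = 0.128), control 2 (0.105), control 3 (0.0506), neomycin 1 (0.107) or neomycin 2 (0.148). It was also lost by DESeq2 (adjusted p = 0.0533), with any expressed gene tested (0.0693) and with the replicate block and exon length correction together (0.0549), and Tal1 was not tested under the 1 CPM minimum. Without neomycin 3 its log2 fold change was -2.51 (adjusted p = 0.0272).

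Lmo2, which bridges Tal1 to other factors, had the highest level per length of the transcription factor genes, 6.34 CPM per kb in control. It was at 13.3, 13.7 and 14.2 CPM in control and 11.7, 13.8 and 15.3 CPM after neomycin, with a log2 fold change of -0.01 (95% interval -0.26 to 0.23, adjusted p = 0.938). Erg, a factor required for VE-cadherin expression in mature endothelium, was at 14.3, 9.87 and 9.62 CPM and 9.49, 11.2 and 9.55 CPM, and its log2 fold change was -0.16 (95% interval -0.50 to 0.17, adjusted p = 0.46). Fli1, an ETS factor also present in blood cells, was at 14, 12.6 and 12.6 CPM and 13.3, 16 and 13.7 CPM, a log2 fold change of 0.13 (95% interval -0.10 to 0.37, adjusted p = 0.391). The groups overlapped for all 3. None of these 3 intervals reached those of Sox18 (-2.60 to -1.27), Sox7 (-2.87 to -0.99) and Sox17 (-3.67 to -0.88). The Tal1 interval (-3.03 to -0.50) ended at about the lower end of that of Erg. These genes were not tested against each other.

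Among the 11 surface glycoprotein genes measured, 6 (54.5%) fell, beside 6.6% of all genes tested. Adgrl4, an adhesion G protein-coupled receptor of endothelium, was at 5.1, 3.24 and 3.93 CPM in control and 0.358, 0.356 and 0.689 CPM after neomycin. Its log2 fold change of -3.13 (SE 0.31, adjusted p = 3.23e-05) left 11.4% of the control level, the second lowest share of the list after Cldn5. Cd34, a sialomucin of capillaries that fibroblasts and progenitors also carry, was at 24.9, 18.9 and 22.8 CPM and 10.5, 13.2 and 13 CPM, a log2 fold change of -0.86 (SE 0.12, adjusted p = 0.000501). Ecscr, which regulates endothelial migration and survival, was at 3.71, 3.33 and 5.11 CPM and 2.13, 1.36 and 1.75 CPM, a log2 fold change of -1.22 (SE 0.24, adjusted p = 0.00334). The groups lay apart for these 3 genes, and 55% of the control level remained for Cd34 and 43% for Ecscr.

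Myct1, a membrane protein gene of endothelium, was at 1.32, 0.517 and 1.32 CPM in control and 0.282, 0.339 and 0.316 CPM after neomycin, a log2 fold change of -1.75 (SE 0.44, adjusted p = 0.0119). Control 2 was well below the other control samples, and the call was lost without control 1 (adjusted p = 0.0534). Robo4, an endothelial receptor that steadies vessel walls, was at 2.74, 1.42 and 2.72 CPM and 0.64, 0.695 and 1.45 CPM, a log2 fold change of -1.31 (SE 0.37, adjusted p = 0.0201). It was the only gene called lower whose groups overlapped, as neomycin 3 lay above control 2. The Robo4 call was lost without control 1 (adjusted p = 0.0647), control 3 (0.0546), neomycin 1 (0.052) or neomycin 2 (0.087). Clec14a, a C-type lectin of endothelium, was at 5.56, 3.89 and 4.79 CPM and 2.58, 2.75 and 3.48 CPM, a log2 fold change of -0.70 (SE 0.20, adjusted p = 0.0202). Its groups did not overlap, but the call was lost without control 1 (adjusted p = 0.0856), neomycin 1 (0.053) or neomycin 2 (0.0785).

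Emcn (chr3:137341067-137432185), the gene of the sialomucin endomucin of capillary and venous endothelium, had the highest level of the list. It was at 259, 238 and 259 CPM in control and 245, 276 and 298 CPM after neomycin, means of 252 ± 12.1 (SD, n = 3) and 273 ± 26.2 (SD, n = 3). The log2 fold change was 0.12 (95% interval -0.07 to 0.30, adjusted p = 0.329), and the groups overlapped. Podxl, a sialomucin gene also active in other epithelia, had a log2 fold change of -0.24 (95% interval -0.46 to -0.03, adjusted p = 0.0853), from 25, 25.7 and 21.1 CPM to 19, 21.8 and 19.9 CPM. Apold1, an early response gene of endothelium, was at 8.32, 9.89 and 10.9 CPM and 7.64, 7.98 and 7.65 CPM without overlap, and its log2 fold change was -0.32 (95% interval -0.60 to -0.04, adjusted p = 0.0821). Plvap, which forms the diaphragms of fenestrae, was at 2.67, 2.41 and 1.39 CPM and 1.36, 1.19 and 1.75 CPM with overlap, a log2 fold change of -0.60 (95% interval -1.24 to 0.05, adjusted p = 0.15). Plvap was called lower without control 3, at a log2 fold change of -0.82 (adjusted p = 0.0412). Ptprb, the gene of the phosphatase VE-PTP, which acts on VE-cadherin and the angiopoietin receptor, was at 0.753, 0.326 and 0.694 CPM and 0.188, 0.237 and 0.335 CPM. Its groups overlapped slightly, and its log2 fold change was -1.22 (95% interval -2.27 to -0.18, adjusted p = 0.0753).

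Of the 3 secreted and matrix protein genes, 1 (33.3%) fell, beside 6.6% of all genes tested. Vwf, the gene of von Willebrand factor, the clotting protein stored by endothelium, was at 2.3, 2.32 and 2.19 CPM in control and 0.885, 0.644 and 1.12 CPM after neomycin, a log2 fold change of -1.37 (SE 0.28, adjusted p = 0.00407). Mmrn2, an endothelial matrix glycoprotein that binds CLEC14A, was at 1.87, 1.53 and 2.38 CPM and 1.11, 1.08 and 0.13 CPM without overlap, and its log2 fold change was -1.31 (95% interval -2.42 to -0.20, adjusted p = 0.0738). Most of the spread of Mmrn2 came from neomycin 3, with 59, 64 and 7 counts in neomycin 1 to 3. It was called lower without neomycin 1, at a log2 fold change of -1.65 (adjusted p = 0.0488), and by DESeq2 (adjusted p = 0.0271) and limma-voom (adjusted p = 0.0356). Egfl7, a secreted regulator of vessel tube formation, was at 29.4, 28.4 and 36.3 CPM and 30.6, 31.1 and 32.8 CPM, a log2 fold change of 0.00 (95% interval -0.21 to 0.22, adjusted p = 0.98). Its exons are shared in part with Gm20532 on the same strand (7.37% of exon bases) and with the microRNA gene Mir126a (2.04%).

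Of the 5 genes of vessel tone and barrier signalling, 2 (40%) fell, beside 6.6% of all genes tested. Nos3, the endothelial nitric oxide synthase gene, was at 1.56, 1.69 and 1.57 CPM in control and 1.04, 0.424 and 0.931 CPM after neomycin, a log2 fold change of -1.01 (SE 0.35, adjusted p = 0.0467). Its groups did not overlap, but its call was lost without control 1 (adjusted p = 0.0925), control 2 (0.131), control 3 (0.0738), neomycin 2 (0.149) or neomycin 3 (0.0667), and also with upper quartile scaling (0.0504) and with the exon length correction (0.0501). The antisense gene Gm15587 overlaps 25.2% of its exon bases, and the strand setting of the counting was not stated. Rasip1, which acts in vessel lumen formation, was at 11.4, 10.2 and 12.5 CPM and 8.6, 6.95 and 7.17 CPM, a log2 fold change of -0.59 (SE 0.13, adjusted p = 0.00618). That value lies just past the fold threshold of 1.5, and without control 1, control 3, neomycin 2 or neomycin 3 it was -0.58, -0.50, -0.53 and -0.55, short of the threshold. It was also short of it by DESeq2 and with RLE scaling (-0.58 each), and with upper quartile scaling (-0.57). Izumo1 on the same strand overlaps 20.4% of the exon bases of Rasip1.

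S1pr1, the sphingosine 1-phosphate receptor that tightens endothelial junctions, led this group by level per length, 12.6 CPM per kb in control. It was at 37, 37.6 and 40.9 CPM in control and 39.9, 42.1 and 40.7 CPM after neomycin, a log2 fold change of 0.09 (95% interval -0.07 to 0.25, adjusted p = 0.398). Calcrl and Ramp2 together form the adrenomedullin receptor. Calcrl was at 4.62, 6.04 and 3.82 CPM and 4.56, 3.93 and 4.1 CPM, a log2 fold change of -0.20 (95% interval -0.61 to 0.20, adjusted p = 0.447). Ramp2 was at 1, 1.02 and 1.14 CPM and 1.56, 1 and 1.06 CPM, a log2 fold change of 0.20 (95% interval -0.47 to 0.87, adjusted p = 0.663), and Vps25 on the same strand overlaps 33.4% of its exon bases. The groups overlapped for these 3 genes.

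Neither gene of specialised vessels was called. Slco1a4, an organic anion transporter gene of the blood-brain barrier, was at 5.19, 4.29 and 3.06 CPM in control and 6.33, 5.96 and 4.99 CPM after neomycin, with neomycin 3 below control 1. Its log2 fold change of 0.46 (95% interval 0.03 to 0.89, adjusted p = 0.0978) was the highest of the list, and without control 1 it was called higher (0.66, adjusted p = 0.0334). Lyve1, the hyaluronan receptor gene of lymphatic vessels and of some macrophages, was near the detection limit with 14, 29 and 24 counts in control 1 to 3 and 20, 16 and 2 in neomycin 1 to 3, and its log2 fold change was -0.77 (95% interval -2.19 to 0.66, adjusted p = 0.408).

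Level and change were then compared across the list. Ranked by mean level over the 6 samples in CPM per kb of exon, which allows levels to be compared between genes, the first 10 were Emcn, Eng, S1pr1, Egfl7, Lmo2, Podxl, Fli1, Erg, Rasip1 and Apold1, from 48.5 to 2.45 CPM per kb. Only 1 of these 10 (Rasip1) was called lower. Eng, S1pr1, Lmo2, Podxl, Fli1 and Apold1 are also made by other cells of the tissue, so their levels cannot be assigned to endothelium alone. Of ranks 11 to 20, 7 were called lower, of ranks 21 to 30, 7, and of the last 9, 6. Spearman's rank correlation between mean level per kb and log2 fold change was 0.543 across the 39 genes, which share the same 6 libraries, and a gene that fell has a lower mean over all samples. Ranked by control level alone, 2 of the first 10 (Rasip1 and Cd34) were called lower, 7 of ranks 11 to 20, 7 of ranks 21 to 30 and 5 of the last 9. In control, Cldn5 (2.97 CPM per kb), Cd34 (3.04), Tek (2.16) and Cdh5 (2.1) were close to each other in level, and their log2 fold changes were -3.40, -0.86, -0.21 and -2.05.

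**Figure D3:**
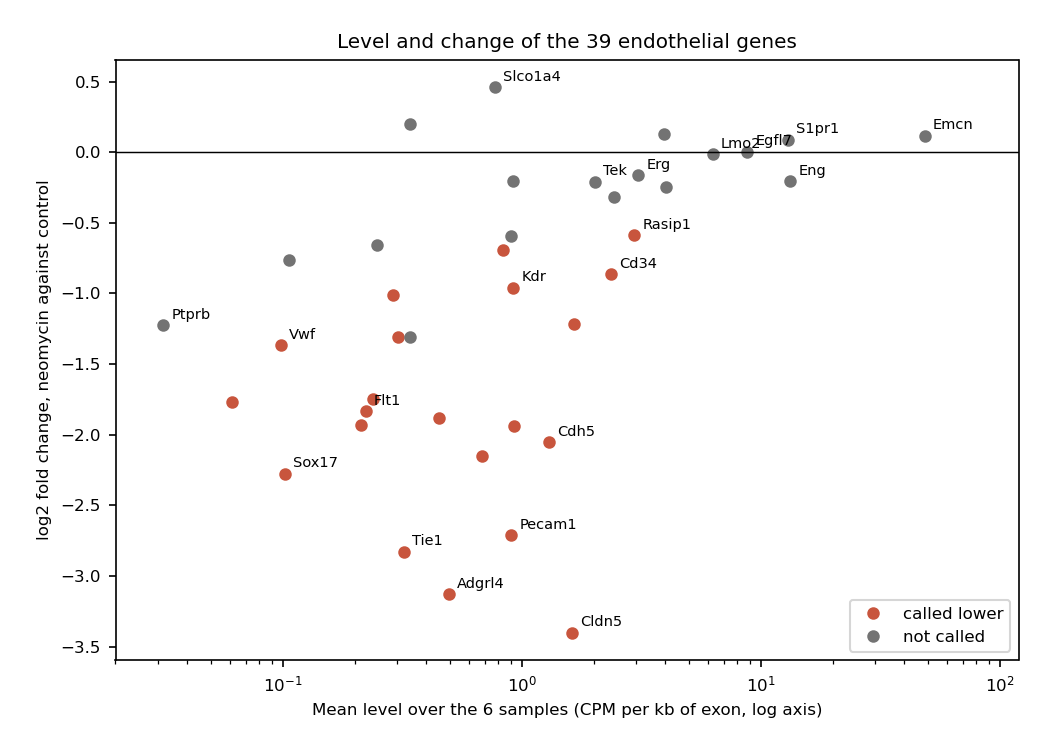
Mean level over the 6 samples (CPM per kb of exon, log axis) against log2 fold change for the 39 endothelial genes. Each point is 1 gene, red for called lower and grey for not called. The 10 genes with the highest level lie between -0.59 and 0.13. The level includes the neomycin samples, so a fall lowers it.

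Some of the genes are also made by other cells of the tissue. Of 13 such genes (Eng, Fli1, Lmo2, Tal1, Podxl, Cd34, Ramp2, Calcrl, S1pr1, Lyve1, Apold1, Icam2 and Pecam1), 4 were called lower, with a median log2 fold change of -0.24. Of the other 26 genes, 17 were called lower, with a median of -1.27. The shares called lower were 30.8% and 65.4%, beside 6.6% of all genes tested. The difference between the sets was not tested. The summed level of all 39 genes was 610, 545 and 595 CPM in control 1 to 3 and 496, 534 and 553 CPM in neomycin 1 to 3, leaving 90.4% of the control mean, and Emcn made up 43.2% of the control sum and 51.8% of the neomycin sum.

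Signals for endothelial receptors come in part from other cells. A list of ligand genes, which also held apelin and its relative Apela, whose receptor gene Aplnr is in the further list below, had 14 genes that passed the filter. Of these, 3 (21.4%) fell, beside 6.6% of all genes tested, and 0 rose, beside 2.24%. DESeq2 and limma-voom also called 0 higher, and 1, Vegfb, was higher at an unadjusted p under 0.05 in edgeR. Angpt2, the angiopoietin made by endothelium itself that opposes ANGPT1 at the receptor, was at 20.9, 14.4 and 18.9 CPM in control and 7.25, 7.68 and 7.39 CPM after neomycin, a log2 fold change of -1.28 (SE 0.14, adjusted p = 5.07e-05). Pgf, a VEGF family ligand that binds the Flt1 product and not the Kdr product, was at 12.2, 12.3 and 14.4 CPM and 6.06, 9.12 and 6.65 CPM, a log2 fold change of -0.83 (SE 0.15, adjusted p = 0.00223). Apln, the apelin gene of sprouting endothelium, was at 31.4, 30.7 and 35.9 CPM and 15.7, 22 and 20.6 CPM, a log2 fold change of -0.75 (SE 0.12, adjusted p = 0.00101). Neomycin samples lay below control samples in all 3. Vegfa, which many cell types make and which binds both VEGF receptors above, was at 339, 464 and 434 CPM and 222, 314 and 322 CPM. Its log2 fold change of -0.53 (SE 0.14, adjusted p = 0.0161) passed the test but not the fold threshold, which it passed without control 1 (-0.64), neomycin 2 (-0.60) or neomycin 3 (-0.62). Angpt1, the activating ligand of the angiopoietin receptor, had a log2 fold change of 0.27 (95% interval -0.05 to 0.58, adjusted p = 0.188). Gdf2 and Bmp10, ligands that use endoglin, were listed at 0 in all 6 samples.

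A further list of 40 endothelial genes held 33 that passed the filter. Of these, 8 (24.2%) fell, beside 6.6% of all genes tested, and 2 rose, beside 2.24%. The other 23 were not called, and the median over the list was -0.28. Gpihbp1, which carries lipoprotein lipase to the capillary lumen, was at 5.04, 4.2 and 6.07 CPM in control and 0.358, 0.305 and 0.633 CPM after neomycin, a log2 fold change of -3.56 (SE 0.29, adjusted p = 6.86e-06). Fabp4, a fatty acid carrier of capillary endothelium and fat cells, was at 19.3, 19 and 22.9 CPM and 2.39, 2.59 and 2.83 CPM, a log2 fold change of -2.97 (SE 0.13, adjusted p = 5.05e-08). Esm1, a secreted product of sprouting tip cells, was at 5.56, 4.85 and 7.97 CPM and 0.602, 0.881 and 1.19 CPM, a log2 fold change of -2.78 (SE 0.27, adjusted p = 2.88e-05). Gpihbp1, Fabp4 and Esm1 fell most of this list and kept 8.46%, 12.8% and 14.6% of their control levels. They do not stand for capillary or tip cell genes as a set. Dll4, the Notch ligand of tip and arterial cells, was at 8.08, 6.55 and 7.76 CPM and 2.54, 1.54 and 1.97 CPM, a log2 fold change of -1.89 (SE 0.20, adjusted p = 4.59e-05). Adgrf5, Cd93, Abcb1a and Nrp2 also fell, with log2 fold changes of -1.52, -1.26, -1.12 and -0.59. The Abcb1a call was lost without control 1, control 2, neomycin 2 or neomycin 3 (adjusted p from 0.0524 to 0.0813), and that of Nrp2 without control 1 (-0.54), control 2 (-0.55) or neomycin 3 (-0.46).

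The genes that rose were Aplnr, the apelin receptor, and Cd36, a fatty acid receptor that macrophages also carry. Aplnr was at 1.01, 0.383 and 0.498 CPM in control and 2.49, 1.88 and 1.28 CPM after neomycin, a log2 fold change of 1.55 (SE 0.40, adjusted p = 0.0127), and its call was lost without control 2 (adjusted p = 0.0571). Cd36 was at 6.06, 5.4 and 6.31 CPM and 9.53, 11.7 and 10.3 CPM, a log2 fold change of 0.83 (SE 0.13, adjusted p = 0.000903). For Aplnr and Cd36 every neomycin sample lay above every control sample.

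Genes of neighbouring cells were counted on the same samples, with marker lists chosen from general knowledge. Of 15 tested pericyte and vascular smooth muscle genes 3 (20%) fell, beside 6.6% of all genes tested, and 0 rose, beside 2.24%. DESeq2 and limma-voom also called 0 higher. At an unadjusted p under 0.05 in edgeR 1 gene was higher, Des, which encodes the muscle filament protein desmin. The Des log2 fold change of 0.49 (SE 0.09, adjusted p = 0.00221) passed the test but not the fold threshold, and all 3 neomycin samples lay above control. Kcnj8 and Abcc9, which encode the subunits of the pericyte potassium channel, had log2 fold changes of -1.58 (SE 0.22, adjusted p = 0.000341) and -1.29 (SE 0.23, adjusted p = 0.00208). Notch3, the Notch receptor of mural cells, had -0.61 (SE 0.12, adjusted p = 0.00283), and was short of the fold threshold without control 1 (-0.46) or neomycin 3 (-0.52). The summed level of the list was 622, 598 and 589 CPM in control and 476, 537 and 557 CPM after neomycin. Pdgfrb, a defining pericyte gene, was at 77.1% of its control level, with all neomycin samples below control, and passed the test (adjusted p = 0.00342) but not the fold threshold. Rgs5, another, was at 96.4% (adjusted p = 0.865).

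Macrophage markers did not fall as a list. Of 13 tested, 6 rose, beside 2.24% of all genes tested. They were Tyrobp, Fcer1g, C1qc, Mrc1, Cd68 and C1qa, with log2 fold changes from 0.59 to 0.93. In edgeR 0 fell, beside 6.6% of all genes, also 0 at an unadjusted p under 0.05 and 0 by DESeq2 and limma-voom. The summed level of the list was 110, 124 and 142 CPM in control and 158, 193 and 194 CPM after neomycin. Without control 1 the calls of C1qc, Mrc1, Cd68 and C1qa were lost, with log2 fold changes from 0.47 to 0.52. The Cd68 call was also lost without control 2 (0.57) or neomycin 2 (0.50), that of C1qa without neomycin 2 (0.54) or neomycin 3 (0.49), and that of Mrc1 without neomycin 3 (0.56). The defining receptor gene Csf1r was at 96.5% of its control level and was not called, and no marker of the list was at 0. Of the erythroid and platelet genes, the 6 hemoglobin symbols were listed at 0 in all samples. The hemoglobin genes are near-identical copies whose shared reads the counting may have left out. Pf4, which macrophages can also express, was the single tested gene of that list called, with a log2 fold change of 0.73 (SE 0.18, adjusted p = 0.01). Of 6 tested lymphatic genes 1 (16.7%) fell, beside 6.6% of all genes tested, and Ccl21a was at 0. The gene that fell was Prox1, which supporting cells also express, with a log2 fold change of -1.46 (SE 0.26, adjusted p = 0.00198). Of 12 supporting cell genes 1 (8.33%) fell and 2 (Tectb and S100b) rose. Of 10 mesenchyme genes 1 (10%) fell and 1 (Dcn) rose. The genes that rose stand beside 2.24% of all genes tested, so neither list was without change. Both shares that fell are near the 6.6% of all genes tested. The part of these other cells in the endothelial results was not tested.

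**Figure D4:**
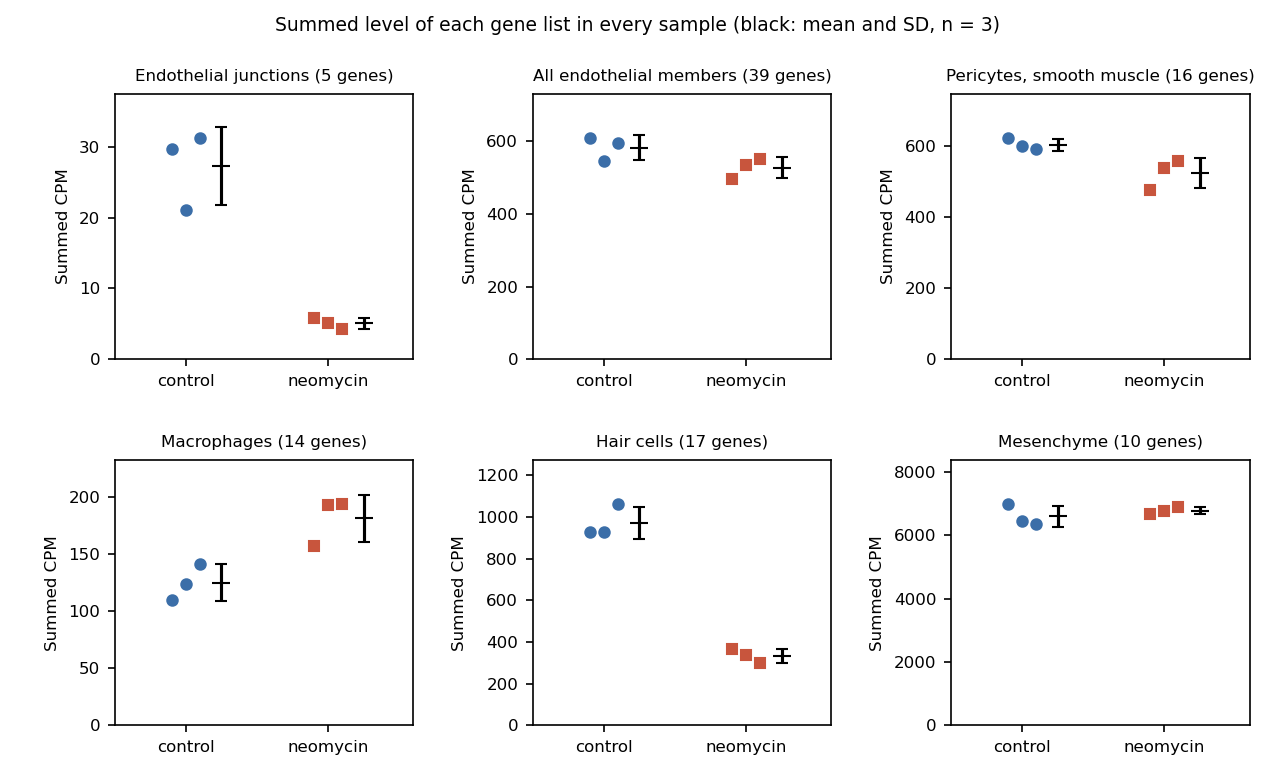
Summed TMM-scaled CPM of 6 gene lists in every sample, with each axis starting at 0. Circles are control 1 to 3 and squares neomycin 1 to 3 from left to right, and black marks are means with SD (n = 3). The endothelial junction genes fell to 18.6% of the control mean, the hair cell list to 34.3%, and the pericyte and smooth muscle list stood at 86.7%, while the macrophage list stood at 145%.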

How the data were processed

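RNA-seq was performed on 3 control and 3 neomycin samples of cochlear explants. The submitters' processing notes name CASAVA 1.8, Trimmomatic 0.23, HISAT2, HTSeq and DESeq2. The authors aligned reads to mm10 and counted them per gene symbol with HTSeq, and the deposited values are raw counts without normalization, with replicates kept apart. The strand setting, the treatment of multi-mapping reads and the annotation date are not given in the sources used here, so overlapping genes can have gained or lost reads.

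From the counts, libraries were scaled by TMM and genes filtered with filterByExpr, which left 15988 of 24421 symbols. The test was edgeR's quasi-likelihood test (edgeR 4.0.16, R 4.3.3) with Benjamini-Hochberg adjustment over all genes tested, and calls used the thresholds that the study set for DESeq2 (adjusted p under 0.05, fold over 1.5). Adjusted p-values in the text come from this test unless DESeq2 1.42.0 or limma 3.58.1 (voom) is named. Standard errors were derived from the F statistic of each gene, as its log2 fold change over the root of F. Fits were tested on simulated data. Exon lengths and positions came from GENCODE M21 (GRCm38, the same sequence as mm10), matched by symbol, and promoters from RefSeq (GRCm38.p6). No duplicated library was found.

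The genes and all lists were chosen with earlier results of these data known. Every gene of the list found in the table is accounted for. Other genes are named only from the lists, when called (at most 8 per list) or at 0, and Aplnr, Abcb1a, Vegfa, Angpt1, Pdgfrb, Rgs5, Csf1r, Vegfb, Des and Cd163 were added after their values were seen. Alternatives were other scalings, filters, tools and thresholds, a replicate block, an exon length correction and leaving out each sample.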

Additional observations from a re-analysis of the deposited data

How the results depend on the processing

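The number of endothelial genes called lower, 21, was 20 by DESeq2, 22 by limma-voom, 19 to 21 under other scalings, 21 with any expressed gene tested and 16 with a minimum of 1 CPM in 3 samples, where 32 of the genes were tested and the median log2 fold change was -0.68. It was 20 with an exon length correction, 17 at a fold change over 2, 15 at an adjusted p under 0.01, and 15 to 19 without 1 sample. Of the 21 genes, 12 were called in all 17 fits. Over all genes tested, the 17 fits called from 800 (without control 2) to 1247 (total counts only) lower. Endothelial genes called higher were 0 to 1 and macrophage genes called lower 0 to 1 without 1 sample (Slco1a4 without control 1, Cd163 without control 3). Pericyte genes called lower were 5 without the fold threshold, and ligand genes called lower 1 at a fold change over 2. The direction turned only for uncalled genes, and the cause was not tested. Egfl7 was -0.062 with total counts, -0.035 with the length correction, -0.028 with the replicate block and length correction, and -0.058 to 0.13 without 1 sample. Lmo2 was 0.0067 with upper quartile scaling and -0.11 to 0.083 without 1 sample. Erg ranged from -0.25 to 0.056 and Ramp2 from -0.029 to 0.32 without 1 sample.

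Whether replicate numbers pair the samples could not be settled from so few samples. Same-numbered samples correlated weakly, at 0.165, 0.0264 and 0.0949. Control 2 correlated slightly better with neomycin 3 (0.0325), and every other sample correlated best with its own number. With the replicate block 21 genes were called lower. Genes under about 1 CPM rest on few reads after neomycin, which limits their precision.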
